A study of Mus musculus with 48 samples.

Results

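The regions described here are 920 open chromatin regions of mouse ER-Hoxb8 cells with a peak in all 26 libraries of clones 1 to 13. They ranked higher in monocytes than in progenitors in at least 12 of these 13 clones. They were chosen by ATAC-seq peak scores in clones 1 to 13. Peaks of the 26 lists of these clones merged into 154639 regions on chromosomes 1 to 19 where they overlapped by at least 1 bp, and 7884 of these held a peak in every list. In each list the 7884 shared regions were ranked by their highest deposited score, and the rank was written as a percentile (100 is the highest). A region was taken when its monocyte percentile exceeded the progenitor percentile of the same clone in at least 12 of 13 clones, with a mean difference of at least 10 percentile points. Of the 7884 shared regions 920 met this rule (11.7%), and 832 met its mirror image.

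The series holds 48 libraries from 24 clones of mouse bone marrow cells, each clone profiled 1 time as progenitors (labelled Plus, GMP cells) and 1 time as monocytic cells (labelled Minus). ER-Hoxb8 cells are myeloid progenitors that keep dividing while a Hoxb8 protein fused to an oestrogen receptor domain is active, and they mature when that activity is withdrawn. All libraries share this transgene, and the labels give the same medium, RPMI with serum, antibiotics and stem cell factor, for both stages. Each clone is a line of its own, so the spread given below lies between clones and includes the technical spread between libraries. No age, strain or time of maturation is given in the sources used here.

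ATAC-seq uses a transposase that cuts DNA where nucleosomes leave it exposed, so promoters and enhancers in use give high peaks. When a myeloid progenitor becomes a monocyte, the transcription factors PU.1, C/EBP and IRF8 are known to open enhancers of phagocytic and inflammatory genes, while sites used by the self-renewal programme lose access. A region that is a peak at both stages can still change its place in the order of peak heights, and this order is what the percentile describes. It is a relative measure: some regions can move up only because others move down. The files give positions in build mm9 (the last peak on chromosome 1 ends at 197168146), and the gene table used here is of a later build, so no gene names, marker checks or sequences are given for these positions.

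Peak lists of clones 1 to 13 held 11114 to 106708 peaks in progenitors and 13606 to 32285 in monocytes. Nearly all low scores of a list lay on an evenly spaced ladder, and 1 step was read as 1 tag. At the median one of the 920 regions a progenitor library held 34 to 576 tags and a monocyte library 51 to 403. Clone 11 had the thinnest progenitor library in this respect (34 tags) and clone 10 the next (183), and the monocyte libraries of clones 3 and 10 had 51 each. Later clones serve below as libraries that the rule did not use. Of these, clones 16, 18, 20, 21 and 25 had monocyte lists of 10966 to 38786 peaks, but only 14 to 40 tags at the median region, so their monocyte ranks are coarse.

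In clones 1 to 13, whose scores chose the regions, the median region moved from the lower to the upper part of the order. The median over regions of the mean percentile was 44.5 in progenitors and 67.2 in monocytes, and the mean difference ran from 10.0 to 61.6 points with a median of 18.2. It reached 20 points in 361 regions, 30 points in 81 and 50 points in 3. These values describe the choice and are not tested.

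The regions began at nearly all levels. Among shared regions with a mean progenitor percentile below 20, 13.3% were taken, and the share was 13.0%, 13.7% and 13.5% in the steps from 20 to 40, 40 to 60 and 60 to 80. It was 3.67% above 80, where little room is left to move up. Regions that began below 20 reached a median monocyte percentile of 30.3, and those that began between 60 and 80 reached 87.4. In 250 of the 920 the mean percentile went from below 50 to 50 or above, and 355 had a mean monocyte percentile of at least 75, against 108 in progenitors.

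**Figure D1:**
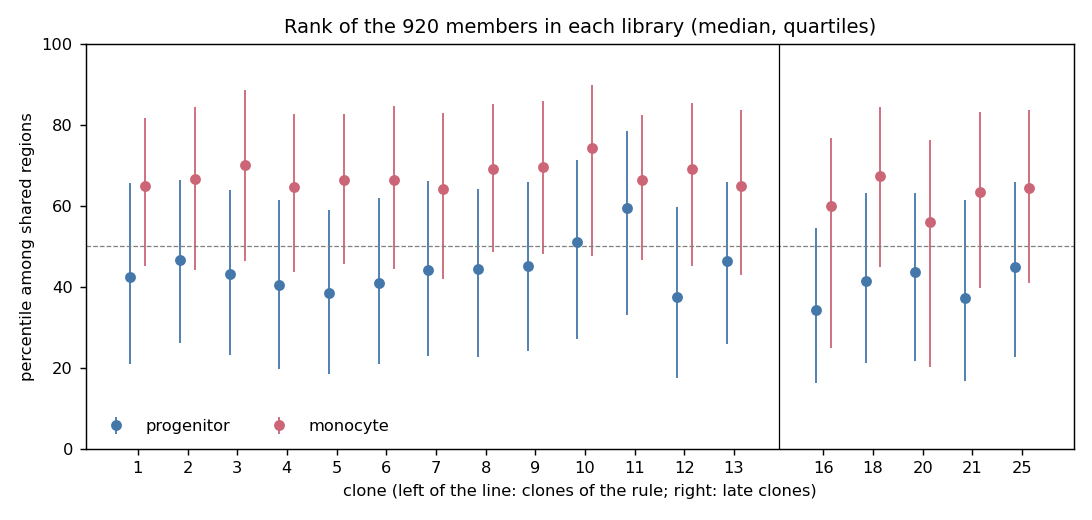
Percentile of the 920 regions among the 7884 shared regions (vertical axis) in each library by clone (horizontal axis), with points at the median and bars over the quartiles. Progenitor medians of clones 1 to 13 lie between 37.4 and 59.4 and monocyte medians between 64.1 and 74.3, and the 5 later clones right of the line show the same order.

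The clones did not contribute alike. The median difference of the 920 regions was largest in clone 12 (24.4 points) and clone 5 (22.4), and smallest in clone 11 (6.71). A higher monocyte percentile in all 13 clones was seen for 372 regions, and 548 had a single exception. That exception was clone 10 or 11 in 386 of the 548. In clone 11 only 641 of the 920 ranked higher in monocytes, and in clone 10 813 did, against 880 to 919 in the other clones. Progenitors of both clones ranked these regions high: the median region stood at 59.4 in the progenitors of clone 11 and 51.1 in those of clone 10, against 37.4 to 46.6 in the others. Clone 10 also had the highest monocyte median, 74.3. The progenitor list of clone 11 is the shortest of the 26 with 11114 peaks, and its part in the result was not tested beyond leaving it out. Without clone 11, 10396 regions were shared and 1374 met the rule, among them 843 of the 920.

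Progenitor clones differed more from each other at these regions than monocyte clones did. The SD over 13 clones was 9.88 points in progenitors and 7.21 in monocytes for the median region, close to the 10.2 and 7.52 of all shared regions. All 13 monocyte values lay above all 13 progenitor values in 89 of the 920 regions (9.67%) and in 95 of all shared regions (1.2%). The rule used the same values and takes nearly all such regions, so this count is a description.

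The largest mean difference lay on chromosome 12, between 3109947 and 3110130. Its progenitor percentiles ran from 1.67 to 99.9 with a median of 15.4, and its monocyte percentiles from 70.2 to 99.9 with a median of 98.6. The groups overlap: 3 progenitor libraries ranked it at 99.7 or higher, and the other 10 at 30.2 or lower. It scored 592.3 and 508.2 in the progenitors of clones 11 and 10, where no other region named here scored above 20.1 and 102.4. In the monocytes of clones 3 and 10 it scored 533.2 and 492.5, and no other named region scored above 112.3 and 94.5. The reason for these extreme scores was not tested. It lies 200013 bp from the nearest other shared region.

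A region on chromosome 4 at 148681819 to 148682061 came second, and here the groups stayed apart. Progenitor percentiles lay between 13.6 and 39.9 (median 27.8) and monocyte percentiles between 71.3 and 96.2 (median 85.8), a mean difference of 57.3 ± 11.5 points (SD over 13 clones). Next was chromosome 7 at 7230896 to 7231222, with 51.6 ± 20.2 points (SD, n = 13). Its progenitor median was 16.1 and its monocyte median 78.1, and 1 progenitor library at 67.8 overlapped the monocytes.

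Among the other 9 of the 12 largest differences, 4 had groups that did not overlap. On chromosome 17 at 80461536 to 80461826 the progenitors lay between 20.7 and 42.5 and the monocytes between 66.9 and 90.8. On chromosome 4 at 8617216 to 8617622 they lay between 10.9 and 39.9 and between 54.6 and 74.3. A second region of chromosome 17, at 6106471 to 6106913, was among the lowest peaks of progenitors (3.15 to 21.9) and near the middle in monocytes (33.9 to 73.3). The last of the 4 was on chromosome 11 at 53164145 to 53164374, with 12.4 to 51.6 in progenitors and 55.8 to 81.6 in monocytes.

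In the remaining 5 the groups overlapped, through 1 progenitor library in 4 of them and through 3 on chromosome 8. Clone 11 was the exception in 3 of them. They lie on chromosome 19 (4793886 to 4794131), on chromosome 1 (75139141 to 75139450) and on chromosome 10 (80639178 to 80639436). Their highest progenitor percentiles were 77.0, 96.4 and 98.3, while their progenitor medians were 27.9, 46.3 and 35.7. Clone 10 was the exception on chromosome 8 at 127421569 to 127421816, where progenitors had a median of 34.9 and a highest value of 95.0. The region on chromosome 11 at 115626568 to 115626828 ranked higher in all 13 clones, with medians of 23.6 and 67.8. Mean differences of these 5 ran from 40.3 to 43.1 points.

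**Figure D2:**
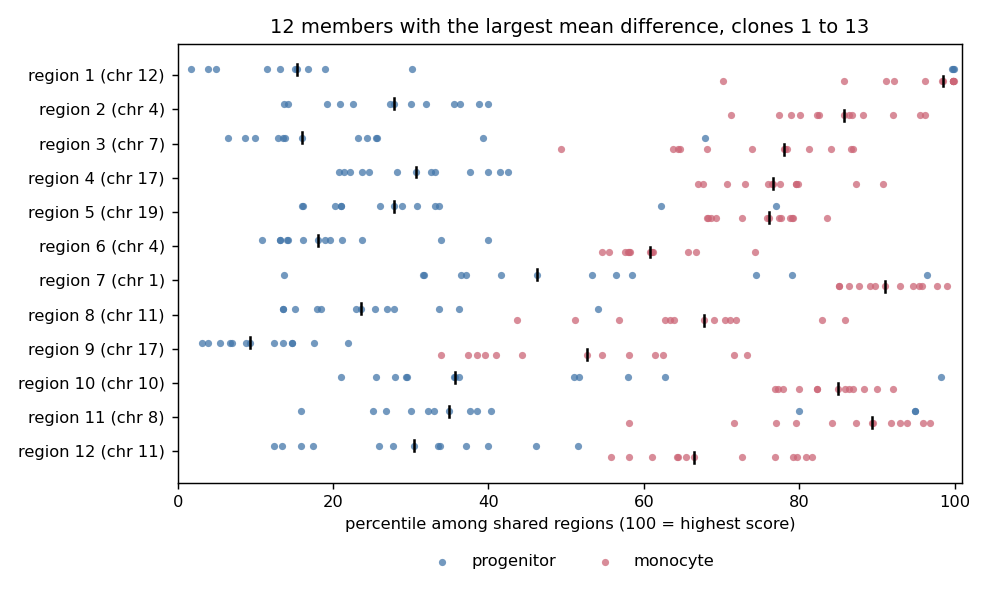
Percentile among the 7884 shared regions (horizontal axis, 100 is the highest score) of the 12 regions with the largest mean difference, in order of that difference, with 1 point per library of clones 1 to 13 and a black line at the median of each stage. In 5 of the 12 the progenitor and monocyte points do not overlap, and in the others a few progenitor libraries reach the monocyte range.

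At the threshold of 10 points the choice is a matter of small margins. Just inside stood 2 regions of chromosome 7 (118226492 to 118226757 and 124524144 to 124524637) and 1 of chromosome 17 (66132227 to 66132510), with mean differences of 10.0, 10.0 and 10.1 points. Just outside stood regions of chromosome 14 (35486901 to 35487123), chromosome 10 (79317018 to 79317373) and chromosome 12 (113052122 to 113052329), with 9.99, 9.96 and 9.94 points. In all, 179 shared regions ranked higher in monocytes in at least 12 clones but by less than 10 points on average.

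Whether the same regions rank higher in monocytes of other clones was examined in clones 16, 18, 20, 21 and 25. There 2652 of the shared regions held a peak in all 10 lists, 383 of the 920 among them. They were ranked anew among themselves, and limma was fitted across all 2652 with Benjamini-Hochberg adjustment at 0.05. Of the 383, 135 were higher in monocytes (35.2%), against 14.9% of all regions compared, and 5 were lower, against 15.5%. These calls hold for the first score only: ranked by the second deposited score, limma called 0 of the 383 higher (22 at an unadjusted p below 0.05), and their median late difference was 3.32 points. By that score 124 of the 920 would have been chosen, and the meaning of either score is not stated. The median late difference of the 383 was 18.1 points, against -0.62 over all regions compared. A region had to be a peak in the short monocyte lists to be compared, which favours those high in monocytes, so these counts do not stand for all 920.

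All 920 were therefore also followed with a missing peak placed at the lowest rank of its list. With all 7884 shared regions in the fit, 328 of the 920 were higher in monocytes (35.7%, limma, adjusted p below 0.05), against 15.2% of all shared regions. Only 11 of the 920 were lower, against 13.8%, and 581 passed in neither direction. The mean late difference was above 0 in 733 of the 920 (79.7%) and in 3942 of all 7884, and its median over the 920 was 16.6 points. A higher monocyte percentile in 5 of 5 clones was seen in 356 of the 920 (38.7%), against 18.4% of all, and a lower one in 16, against 17.1%. Missing regions share a tied percentile, 24.8 in the monocytes of clone 16 and 11.1 to 20.2 in the others, so a region very low in progenitors counts as higher even where its monocyte peak is missing.

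Each of the 5 clones showed the same direction. The median difference of the 920 was 18.8 points in clone 16, 19.7 in clone 18, 9.86 in clone 20, 18.8 in clone 21 and 16.5 in clone 25, and the share ranking higher in monocytes was 75.8%, 83.3%, 65.5%, 77.3% and 72.7%. Over all shared regions these medians lay between 0.12 and 1.15 points. The depth of the libraries also varied. Depth was read from the step of the score ladder and is given relative to the median of all libraries. In clones 1 to 13 every progenitor library was deeper by this measure than every monocyte library (1.76 to 2.35 against 0.416 to 0.845). Stage and depth so read therefore went together in the clones of the rule. Tags at the median chosen region did not keep this order. Monocytes held more in clones 1, 8 and 11 (210, 403 and 242, against 199, 391 and 34 in progenitors), and progenitors held more in the rest. In the 5 later clones depth differed between stages in both directions. In clones 16, 18 and 20 progenitors were deeper (2.04, 3.17 and 2.32 against 0.691, 0.652 and 1.15), and in clones 21 and 25 monocytes were (0.775 and 1.43 against 0.129 and 0.0894). At the median chosen region, progenitors and monocytes held 25 and 22 tags in clone 21 and 20 and 40 in clone 25. The part of depth in the result was not tested. Without clones 21 and 25, 70 of 411 regions compared were higher in monocytes, against 203 of all 2959, and without clone 18, 90 of 386, against 269 of 2706.

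The size of the difference in clones 1 to 13 went along with that in the later clones. Regions with 10 to 15 points had a median late difference of 10.9 points, and those with 15 to 20, 20 to 25 and 25 to 30 points had 14.9, 21.3 and 22.2. The 81 regions with 30 points or more had a median of 34.9, and 49 of them passed the late test. Across the 920 regions the correlation of both differences was r = 0.325 (rho = 0.293), and across all 7884 it was r = 0.519 (rho = 0.502). Regions of 1 library share its depth, so these are descriptions. The 372 regions without an exception and the 548 with 1 passed at like shares, 34.9% and 36.1%.

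**Figure D3:**
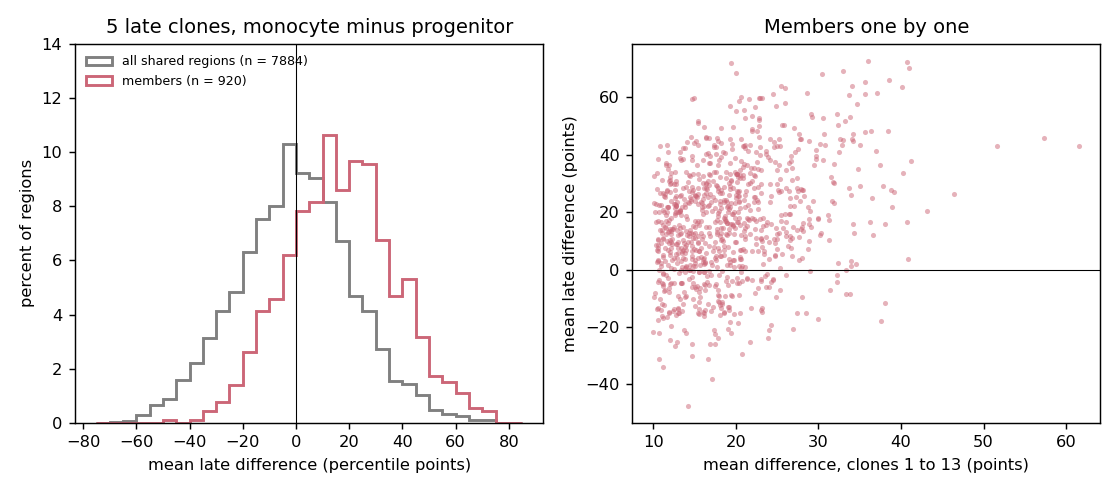
Mean monocyte minus progenitor percentile in the 5 later clones, with missing peaks at the lowest rank, as the percent of regions per 5-point step for all 7884 shared regions and the 920 chosen ones (left), and for each chosen region against its mean difference in clones 1 to 13 (right). The chosen regions have a median of 16.6 points while all shared regions centre near 0, and 733 of the 920 points lie above 0.

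Of the 12 regions with the largest early difference, all 12 had a late difference above 0 with missing peaks at the lowest rank and 7 passed. Only 6 held a peak in all 10 late lists, and 4 of those passed. The tied rank of missing peaks bears on the sign of the others. The region on chromosome 11 at 115626568 held a peak in 1 of 5 late monocyte lists and gave 3.57 points. That on chromosome 10 at 80639178 held a peak in 2 of 5 and gave 16.5 points. On chromosome 1 at 75139141 to 75139450 the progenitors of clones 16, 18, 20, 21 and 25 stood at 6.13, 6.56, 14.3, 0.735 and 13.6, and their monocytes at 96.1, 98.7, 87.4, 78.8 and 98.9. This is the widest gap among the 6 compared, with 83.7 ± 9.02 points (SE, limma, adjusted p = 2.71e-05). The region on chromosome 4 at 148681819 stood at 8.48, 7.75, 7.32, 7.90 and 41.2 in progenitors and at 68.3, 50.1, 58.8, 66.3 and 40.03 in monocytes, a difference of 42.2 ± 9.33 points (SE, limma, adjusted p = 0.00350) that 4 of 5 clones share. Clone 25 was level there, since its progenitor value was far above the others.

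Both other regions that passed lay on chromosomes 17 and 11. The region on chromosome 17 at 6106471 was at the bottom of all 5 progenitor libraries (0.0377 to 3.75) and spread widely in monocytes, from 3.15 in clone 16 to 96.2 in clone 25 (55.7 ± 13.9 points, SE, limma, adjusted p = 0.00676). Its direction turned with the second score (-13.1 points), and its call was lost without clones 21 and 25 (54.0 points), as was that of the region named next (45.1 points). On chromosome 11 at 53164145 the progenitors lay between 0.302 and 10.3, and the monocytes between 58.8 and 75.3 apart from clone 16 at 14.6 (53.0 ± 10.3 points, SE, limma, adjusted p = 0.00143). The regions on chromosome 17 at 80461536 and chromosome 4 at 8617216 did not pass (20.5 and 19.6 points, limma, adjusted p = 0.141 and 0.109). They did with missing peaks at the lowest rank (26.3 and 38.0 points, limma, adjusted p = 0.0418 and 0.0123). In that fit every region without a peak in a list is placed below them there. Among the 2652 regions compared, the region of chromosome 4 at 8617216 ranked higher in monocytes in only 3 of 5 clones. Its monocytes of clones 21 and 25 stood at 2.41 and 1.41, against 2.83 and 4.94 in progenitors. For the region of largest early difference, on chromosome 12 at 3109947, the late monocytes of clones 18, 20 and 25 placed it at 99.8 or higher and those of clones 16 and 21 held no peak, which gave 43.2 ± 17.1 points (SE, adjusted p = 0.0682, missing peaks at the lowest rank).

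The 12 largest late differences among regions that passed ran from 65.4 to 85.1 points, with adjusted p from 2.71e-05 to 0.000236 (limma), and all 12 ranked higher in monocytes in 5 of 5 clones. Their highest late progenitor percentile was 35.8 and their lowest late monocyte percentile 54.9, so the stages stayed apart in each. Ranked by the second score none of the 12 passed and their differences ran from -11.04 to 46.8 points, with 11.7 on chromosome 1 at 75139141, 0.83 on chromosome 14 at 62299965 and the lowest on chromosome 17 at 33961413. In clones 1 to 13 their mean differences were 19.5 to 41.0 points, and only the region on chromosome 1 at 75139141 is among the 12 largest there. Clone 11 was the single early exception in 8 of the 12.

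At the top stood a region on chromosome 3 at 67386546 to 67386826, which lies 1462079 bp from the nearest other shared region. Its late progenitor percentiles were 7.77, 3.70, 2.51, 13.1 and 9.62, and its monocyte percentiles 96.1, 97.5, 89.3, 82.9 and 96.6 (85.1 ± 8.76 points, SE). In clones 1 to 13, ranked among all 7884 regions, it stood at 32.6 to 76.4 in monocytes and 6.84 to 43.8 in progenitors. Chromosome 5 at 115460990 to 115461215 gave 82.4 ± 8.90 points (SE), with 3.66 to 15.7 in progenitors and 77.3 to 97.3 in monocytes. On chromosome 8 at 13159081 to 13159300 all 5 monocyte values were 90.2 or higher, against 10.5 to 25.9 in progenitors.

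The other 8 lay on 6 chromosomes. Chromosome 17 held 3, at 33961413 to 33961632, 29144782 to 29145065 and 26645402 to 26645703, with late differences of 73.9, 66.1 and 65.4 points. Chromosome 11 at 120410909 to 120411142 gave 75.7 points and chromosome 14 at 62299965 to 62300467 gave 71.2. Chromosome 6 at 125081749 to 125081972 gave 69.1 points, chromosome 9 at 113617180 to 113617472 gave 67.8 and chromosome 7 at 149573760 to 149574011 gave 66.8 (43.6 with missing peaks at the lowest rank). The region of chromosome 9 is the lowest of these in clones 1 to 13, with a mean monocyte percentile of 36.7 among all 7884 regions. In the late monocytes it stood at 54.9 to 84.0 among the 2652 regions compared.

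A few regions went the other way in the later clones. The lowest late difference among the 383 was on chromosome 7 at 118226492 to 118226757, just inside the threshold of the rule. Its late progenitors stood at 80.2, 89.4, 69.1, 70.2 and 60.6 and its monocytes at 14.6, 42.7, 5.54, 54.9 and 36.6, lower in 5 of 5 clones (-43.0 ± 11.0 points, SE, limma, adjusted p = 0.00815). In clones 1 to 13, ranked among all 7884 regions and not among the 2652, it had been among the highest peaks of both stages, with means of 86.1 and 96.1.

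On chromosome 9 (100446415 to 100446724) the late difference was -31.6 points (limma, adjusted p = 0.0221), and on chromosome 5 (109058717 to 109058930) it was -30.8 (adjusted p = 0.0391). Chromosome 2 (25402390 to 25402631) gave -30.7 points (adjusted p = 0.0128), and chromosome 6 (37392182 to 37392426) gave -30.3 without passing (adjusted p = 0.0580). The region of chromosome 9 had separate groups in clones 1 to 13, with progenitors at 30.7 to 80.0 and monocytes at 84.0 to 95.4, and was lower in monocytes in 5 of 5 later clones. All 5 regions began above the middle of the order, with early progenitor means of 60.5 to 86.1. With missing peaks at the lowest rank, only the region of chromosome 7 still passed (-21.8 points, limma, adjusted p = 0.0211). In the fit of regions with a peak in every list, its call was lost without clone 16 (-34.6 points, against -43.0 with all 5 clones). In that same fit the regions of chromosomes 9 and 5 lost their calls without clone 16, 18, 21 or 25, left out singly. They kept them without clone 20. The region of chromosome 2 lost its call without clone 25. Ranked by the second score the regions of chromosomes 7, 9 and 5 turned to 2.64, 11.0 and 31.7 points.

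Presence in lists of equal length gave a further readout in all 11 later clones, including those with short monocyte lists. Each clone's progenitor and monocyte lists were cut to the length of the shorter list by score, and the share of the 920 regions that still held a peak was set beside that of all 7884. In the monocyte list the share of the 920 was above that of all shared regions in 10 of 11 clones, by a median of 13.8 percentage points. In the progenitor list it was above in 2 of 11, with a median of -2.44 points. The monocyte excess was above the progenitor excess in 11 of 11 clones. In plain counts, more of the 920 held a peak only in the progenitor list than only in the monocyte list in 7 of 11 clones. Over all shared regions the progenitor-only count was the larger in each of the 11. In clone 15 the counts of the 920 were 171 against 147 (18.6% and 16.0%), beside 31.0% and 6.11% of all shared regions. In clone 19 they were 299 against 32 (32.5% and 3.48%), beside 41.5% and 1.64%.

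Clone 18 had the fullest monocyte list, with 861 of the 920 (93.6% against 77.8% of all), while its progenitor list of 10966 peaks held 782, which is a share below the 86.5% of all. In clone 15, at 7378 peaks, the shares were 62.3% against 46.7% in monocytes and 64.9% against 71.6% in progenitors. Clones 17 and 23, at 5856 and 6227 peaks, held 65.4% and 66.6% of the 920 in monocytes against 51.1% and 51.7% of all. Clone 19 was the exception, with 9.89% of the 920 in the monocyte list against 10.7% of all, but its progenitor list of 4642 peaks held 38.9% against 50.5%. The monocyte list of clone 22 has 231 peaks and held 17 of the 920 (1.85%), near the 1.75% of all shared regions. The top 231 progenitor peaks of that clone held 0, against 2.44% of all. In clone 20 the lists of 38786 peaks held 63.9% in monocytes against 59.6%, and the progenitor list held all 920. Progenitor shares of the 920 were also high in clone 25 (92.2%) and clone 21 (86.0%), which leaves little room for an excess there.

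**Figure D4:**
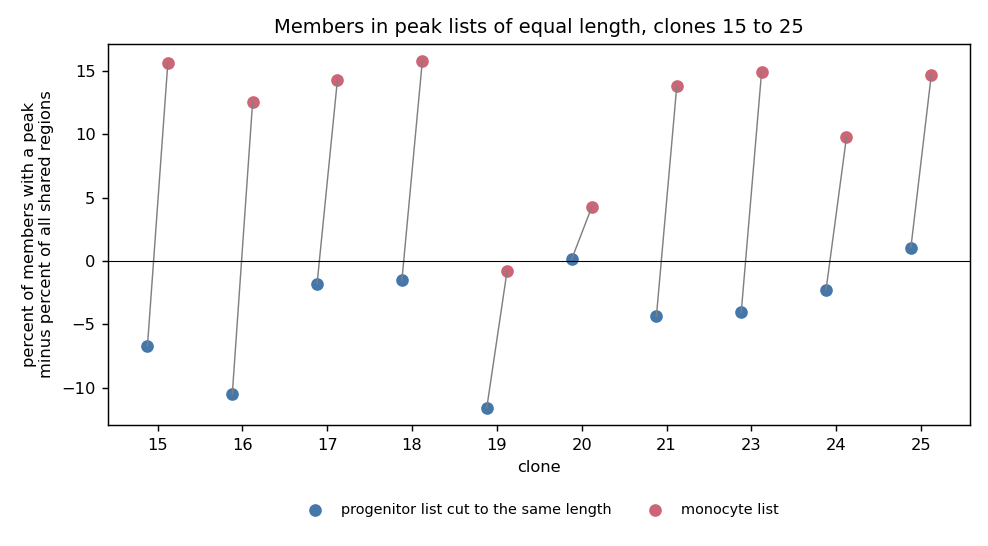
Share of the 920 regions with a peak minus the share of all shared regions (vertical axis, percentage points) in progenitor and monocyte lists of equal length, for 10 of the 11 later clones (horizontal axis); clone 22, with 231 peaks, is left out. Monocyte points lie between -0.776 and 15.7 and stand above the progenitor point of the same clone throughout.

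The regions were spread unevenly over the chromosomes. Chromosome 17 had the highest share, 74 of 414 shared regions (17.9%), and chromosome 11 the next, 122 of 725 (16.8%). Chromosome 1 had the lowest, 17 of 459 (3.70%), and chromosome 18 the next, 10 of 210 (4.76%). All other chromosomes lay between 8.78% and 14.8%.

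The share of chromosome 1 was nearer the overall one when 3 clones were left out, which were picked after their values were seen. Its shared regions as a whole had a median monocyte minus progenitor difference of -7.78, -12.4 and -13.1 points in clones 1, 6 and 13, and of -2.68 to 3.08 points in the other 10. Without these 3 clones (9 of 10 required) 47 of the 459 were taken, or 10.2%, beside 13.98% over all chromosomes. In that selection chromosome 11 stood at 19.9%, chromosome 17 at 19.6% and chromosome 18, then the lowest, at 6.67%.

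Chromosomes 11, 17 and 18 also stood apart in the later clones when all their shared regions were taken. The median late difference over all shared regions was 8.11 points on chromosome 17, 7.46 on chromosome 11 and 4.28 on chromosome 19, and -6.66 on chromosome 18. On chromosomes 11 and 17 it was above 0 in each of the 5 clones (2.87 to 13.6 and 1.66 to 14.4 points), and on chromosome 18 below 0 in each (-8.08 to -1.95). Chromosomes 19 (1.19 to 9.99 points) and 5 (0.209 to 3.18) were also above 0 in each clone. Chromosomes 6, 10, 14 and 16 were also below 0 in each. Of the 122 chosen regions of chromosome 11, 52 were higher in late monocytes (limma, missing peaks at the lowest rank), against 154 of all 725, and on chromosome 17 31 of 74 were, against 104 of 414. The part of these chromosome-wide differences in the count of chosen regions was not tested.

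**Figure D5:**
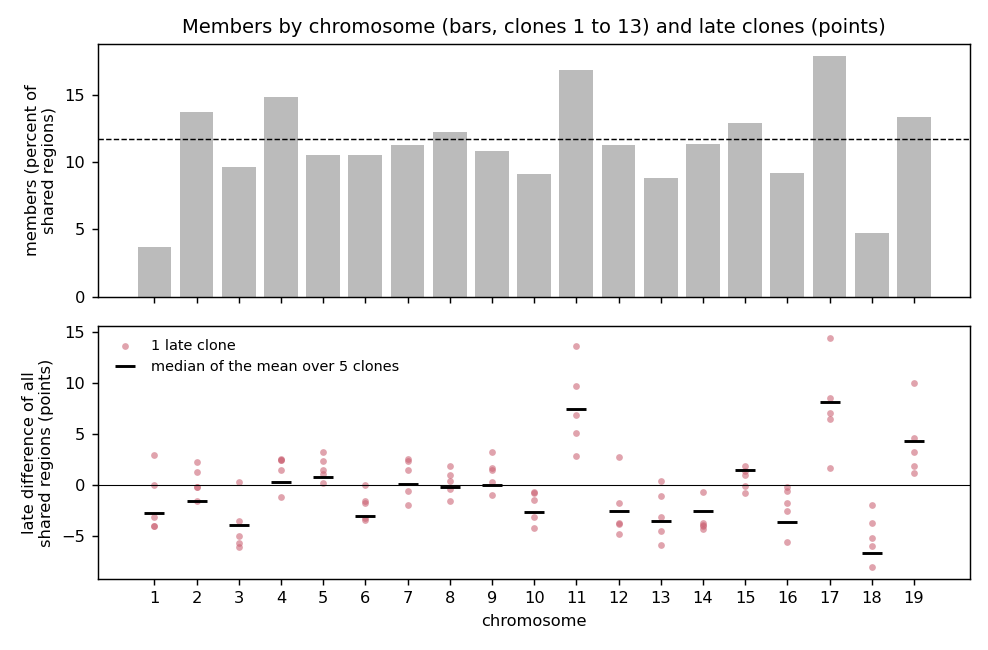
Share of shared regions that were chosen on each chromosome (upper bars, percent, dashed line at the overall 11.7%) and the median late difference of all shared regions on it (lower panel, percentile points), with 1 point per later clone and a black line at the median of the mean over clones. Chromosomes 11 and 17 are high in both panels, and chromosome 18 is low in both.

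In shape and surroundings the chosen regions resembled the other shared regions. Their median width was 249.5 bp, against 254 over all, and 831 of the 920 (90.3%) were a single peak in each of the 26 lists, against 87.9%. The highest peak of monocytes and that of progenitors had centres 28 bp apart at the median, against 25 bp. Within 20000 bp a chosen region had 6.21 other merged regions on average, against 6.18, and 27.9% had no other within 5000 bp, against 25.9%.

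The share of chosen regions among the neighbours of a chosen region was above the overall share at each distance examined; the difference was not tested. Where adjacent shared regions lay less than 5000 bp apart it was 13.2%, against 9.95% of all regions in such pairs, from 5 pairs of chosen regions. Where adjacent shared regions lay 5000 to 20000 bp apart, 20.1% of the neighbours of a chosen region were chosen as well, against 12.7% of all regions in such pairs. The shares were 16.1% against 12.8% at 20000 to 100000 bp and 11.7% against 11.2% at 100000 to 1000000 bp. Of the 920, 686 had no chosen region next to them in the order of shared regions, 72 runs held 2, 26 held 3 and 3 held 4. With 11.7% of shared regions chosen, most would lack a chosen neighbour under any even spread, so this count describes their frequency.

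The runs of 4 did not behave alike in the later clones. On chromosome 6 between 116143449 and 116288156 all 4 regions had late differences above 0, and 3 of them passed with missing peaks at the lowest rank. The second of that run, at 116157938 to 116158172, gave 51.8 ± 9.61 points (SE, limma, adjusted p = 0.00211). On chromosome 11 between 120410909 and 120479363 the first 2 regions differed from the last 2 in size: those at 120410909 and 120442806 gave 61.6 and 69.1 points (adjusted p = 0.000876 and 0.000106), and those at 120459665 and 120479150 gave 15.5 and 5.62 (adjusted p = 0.150 and 0.739). On chromosome 2 between 164347399 and 164630679 only the region at 164571390 passed (44.7 ± 9.68 points, SE, adjusted p = 0.00453), and those at 164595169 and 164630377 gave -15.3 and -4.02 points (adjusted p = 0.266 and 0.809).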

How the data were processed

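ATAC-seq peak lists of 48 libraries were used, 1 per library, in mm9 coordinates per the submitters' processing notes, which also name BWA. For the peak caller, filters, versions and any shift of cut sites, nothing is stated in the sources used here. Every deposited list has 2 columns of scores and no header. The first score served to rank regions within a list, and the second only as an alternative. The scaling and meaning of both scores are not stated in the labels. Printed starts are 1-based.

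Members and lists were chosen with earlier results of these data known. Peaks were merged with Python 3.11.15 and pandas 2.3.3, a region's value was its highest score, and ties took the mean rank. Late clones (monocyte list of at least 10000 peaks) were fitted across all regions with limma 3.58.1 in R 4.3.3, stage as the only term with a trend, two-sided, and the fit was tested on simulated data. Clone numbers pair the libraries because both come from the same clone per the design text. Deviations from the stage mean correlated at -0.0117 to 0.0490 within the 5 pairs. The ladder of scores was read below 40 steps with a tolerance of 0.1 step, which held for 95.0% to 100% of those peaks in the libraries ranked. Regions named are the 12 with the largest mean difference, the 12 with the largest late difference among those past the threshold, 3 on each side of the 10-point limit and the 5 lowest late differences. Runs of 4 were chosen after their values were seen. Gene lists and motifs were set aside, since no genome or annotation of mm9 was used here. P-values measure the spread between clones, which holds technical spread too.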

Additional observations from a re-analysis of the deposited data

Results flagged for a closer look

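Of 69 groups of 5 late libraries examined, 5 held a library far from the others, and chance gives about 1 in 20. Progenitors of clone 25 were high for the regions on chromosome 4 at 148681819 to 148682061 (41.2, the others 7.32 to 8.48) and on chromosome 7 at 7230896 to 7231222 (44.8). This library has 20 tags at the median member. Monocytes of clone 16, with 14 tags there, were low on chromosome 11 at 53164145 to 53164374 (14.6). Monocytes of clone 21 were low on chromosome 8 at 13159081 to 13159300 (90.2), and those of clone 20 on chromosome 7 at 149573760 to 149574011 (87.4), both within a narrow high range.

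Among the regions named, 2 ranked higher in monocytes in every one of clones 1 to 13 and lower in every one of the 5 later clones. They lie on chromosome 7 at 118226492 to 118226757 (late difference -43.0 points) and on chromosome 9 at 100446415 to 100446724 (-31.6 points). Of all 171 members that rose in 13 of 13 clones and held a peak in all 10 late lists, 4 were lower in 5 of 5 later clones. The difference between the clone sets was not tested.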

How the results depend on the processing

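The number of members was 372 when 13 of 13 clones were required and 361 at 20 points. Leaving out 1 clone gave 926 to 1374. Ranked by the second score 620 regions met the rule, of which 124 were among the 920.

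The 395 regions higher in late monocytes became 1200 with missing peaks at the lowest rank (1169 with the replicate block as well), 596 with all 11 late progenitor libraries, 203 without clones 21 and 25, and 269 to 463 without 1 clone. With missing peaks at the lowest rank they were 677, 786, 1158, 853 and 1016 without clone 16, 18, 20, 21 and 25. Ranked by the second score limma called 0 (177 at an unadjusted p below 0.05), and the median late difference of the members was 3.32 points; the cause was not tested. The other settings on the percentile scale gave a median of 15.6 to 20.1 points. The block by clone gave 393 and changed the call of no region named from the design rule. Single regions turned only with the second score, on chromosome 17 at 6106471 (-13.1) and 33961413 (-11.04), chromosome 7 at 118226492 (2.64), chromosome 9 at 100446415 (11.0) and chromosome 5 at 109058717 (31.7). Of the other values of single regions, 340 kept direction and side of the threshold, 59 lost it and 14 gained it. The thin late monocyte libraries (14 to 40 tags at the median member) limit how small a difference can be seen.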

Other observations

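Among 1587 windows of 1000000 bp with a shared region, 23 held at least 5 members, 140 in all. The fullest lay on chromosome 11 from 120000001 to 121000000, with 12 members among 30 shared regions. In the late clones 8 of these 30 were higher in monocytes (limma, missing peaks at the lowest rank), beside 15.2% of all shared regions, and their median late difference was 16.4 points. On chromosome 4 from 133000001 to 134000000, 8 of 18 were members, and 6 of the 18 were higher in late monocytes. On chromosome 19 from 4000001 to 5000000, 8 of 26 were members, 4 of the 26 were higher in late monocytes and the median late difference was 1.21 points. On chromosome 2 from 119000001 to 120000000, 7 of 13 were members, but the median late difference was -2.23 points. On chromosome 11 from 83000001 to 84000000, 6 of 11 were members, with a median late difference of 21.9 points.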
